A study of Homo sapiens with 18 samples.

Results

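The glucocorticoid receptor (GR) occupied 882 regions of the human genome in all 6 siRNA conditions examined. These core GR binding regions (GBR) were the peaks of the siHic5/siNS list that overlapped by at least 1 bp a peak in each of the other 5 lists, and they made up 882 of the 9533 siHic5/siNS GBR, or 9.25% (95% Wilson interval 8.69 to 9.85%, covering counting error only). Of the 2474 siHic5/siNS GBR that also overlapped a siNS/siNS peak (shared GBR), 35.7% were core, and the other 1592 shared GBR lacked a call in at least 1 of the 4 lists from remodeler-depleted cells. The members were chosen by the peak calls themselves, so the strength of core GBR is given below as a description and was not tested.

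GR is a nuclear receptor that enters the nucleus when it binds a glucocorticoid such as dexamethasone (dex) and attaches to DNA as a dimer. Its classical target sequence, the glucocorticoid response element (GRE), is an imperfect palindrome of 2 arms of 6 bases held 3 bases apart, and GR can also be drawn to DNA near other factors such as AP-1. Hic-5 (TGFB1I1) is a LIM domain coregulator of steroid receptors, CHD9 is a chromodomain helicase, and BRM (SMARCA2) is an ATPase of the SWI/SNF remodeling complex.

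The cells were U2OS-GRα, an osteosarcoma line that stably expresses GRα, so GR came from an introduced gene in a single line. Cells received siRNA for 48 h in 6 combinations, which were the nonspecific control (siNS/siNS), Hic-5 alone (siHic5/siNS), CHD9 alone (siCHD9/siNS), CHD9 with Hic-5 (siCHD9/siHic5), BRM alone (siBRM/siNS) and BRM with Hic-5 (siBRM/siHic5), and every group was given 100 nM dex for 1 h before GR ChIP-seq. Each combination had 2 replicates, made on different days, and 1 input library, and each deposited peak list pools the replicates of a combination. There is therefore 1 value per condition with no replicate spread, and every test below compares GBR with GBR and not replicated conditions. The lists held 2582 (siNS/siNS), 9533 (siHic5/siNS), 1415 (siCHD9/siNS), 2451 (siCHD9/siHic5), 1278 (siBRM/siNS) and 3383 (siBRM/siHic5) peaks, read totals were not in the files, and the part of depth in which weaker GBR were called was not tested.

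The DNA under core GBR is shown first, since 69.0% of them held a GRE within 100 bp of the siHic5/siNS summit. The 5 following windows of 100 bases are centred on the summits of core GBR that stood among the strongest in the siHic5/siNS list or nearest to well-known glucocorticoid target genes, and each holds a GRE without mismatch. They are read 5′ to 3′ on the plus strand of GRCh38, and capitals mark the GRE match.
IP6K3, chr6:33746256-33746355: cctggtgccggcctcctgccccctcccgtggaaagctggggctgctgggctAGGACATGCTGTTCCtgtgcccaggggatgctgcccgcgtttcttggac
FKBP5, chr6:35728058-35728157: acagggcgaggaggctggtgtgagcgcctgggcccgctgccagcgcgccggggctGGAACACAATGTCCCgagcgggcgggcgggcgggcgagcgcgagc
MT2A, chr16:56608269-56608368: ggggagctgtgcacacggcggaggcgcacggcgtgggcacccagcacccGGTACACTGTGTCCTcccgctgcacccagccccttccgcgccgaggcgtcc
PER1, chr17:8154410-8154509: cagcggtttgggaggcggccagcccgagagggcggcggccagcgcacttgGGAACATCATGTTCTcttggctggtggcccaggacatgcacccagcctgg
SCNN1A, chr12:6376271-6376370: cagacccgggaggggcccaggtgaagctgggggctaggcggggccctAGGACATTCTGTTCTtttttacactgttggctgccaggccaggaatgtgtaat

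The GRE in these windows were AGGACATGCTGTTCC (IP6K3), GGAACACAATGTCCC (FKBP5), GGTACACTGTGTCCT (MT2A), GGAACATCATGTTCT (PER1) and AGGACATTCTGTTCT (SCNN1A). The search pattern requires the ACA and TGT triplets on either side of the spacer, so all 5 hold them. The 3 spacer bases, which the pattern leaves free, differ in each. Their centres lay 8, 12, 6, 7 and 4 bp from the summit in that order.

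Other strongly occupied core GBR carried a GRE that departed from the pattern at 1 position or stood beside another motif. The window upstream of KLF9 also holds a TGAGTCA AP-1 match 17 bases before the summit, and the windows at HIF3A, ZFP36 and ANGPTL4 hold a GRE with 1 mismatch.
HIF3A, chr19:46301020-46301119: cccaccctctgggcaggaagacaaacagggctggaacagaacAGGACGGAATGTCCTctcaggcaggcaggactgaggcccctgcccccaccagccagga
ZFP36, chr19:39409679-39409778: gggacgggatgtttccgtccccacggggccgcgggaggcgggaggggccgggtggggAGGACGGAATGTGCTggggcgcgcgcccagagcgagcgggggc
ANGPTL4, chr19:8355840-8355939: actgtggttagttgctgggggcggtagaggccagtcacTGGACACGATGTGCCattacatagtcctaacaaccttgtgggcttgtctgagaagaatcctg
KLF9, chr9:70420059-70420158: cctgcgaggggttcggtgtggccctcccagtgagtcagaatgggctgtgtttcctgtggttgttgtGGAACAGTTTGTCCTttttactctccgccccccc

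The HIF3A and ZFP36 sites share AGGACGGAATGT, with the substitution A6G counted from the 5′ end of the printed GRE. A mismatch at the innermost base of an arm, as here, was the most frequent one over core GBR, at 29.4% of the GRE nearest to the summit, and mismatches at the base next to it were the rarest, at 1.97%.

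A pair of core GBR showed that repeats of a short unit can lie under the summit. The core GBR with the most GRE matches, 6 in 200 bases, was 22.7 kb upstream of FIBCD1, and the one nearest to MSX2 held none. Shifted by 18 bases, the FIBCD1 window matched itself at 63.2% of positions, and the MSX2 window matched itself at 70.1% after a shift of 36 bases, against 35 to 41.8% at the best shift for the other 9 windows printed here. The placement of reads in these repeats was not examined.
FIBCD1, chr9:130961885-130962084: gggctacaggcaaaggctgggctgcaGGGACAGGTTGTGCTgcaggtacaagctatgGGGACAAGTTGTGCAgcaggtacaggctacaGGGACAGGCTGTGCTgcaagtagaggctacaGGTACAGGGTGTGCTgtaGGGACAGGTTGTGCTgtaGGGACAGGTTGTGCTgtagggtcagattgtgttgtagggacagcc
MSX2, chr5:174737611-174737710: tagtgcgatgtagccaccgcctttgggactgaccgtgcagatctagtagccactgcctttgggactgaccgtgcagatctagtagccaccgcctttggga

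The core GBR were drawn from the top of the siHic5/siNS list. The strongest 50 GBR by −log10 p-value were all core, as were 99 of the strongest 100 and 677 of the strongest 1000. By deciles of the list, 665 of the 953 GBR in the strongest decile were core (69.8%, 66.8 to 72.6%), against 150 of 953 (15.7%) in the next one and 0 of 2860 in the weakest 3 deciles. The median −log10 p-value rose with the number of lists that called a GBR, from 17.1 for the 5598 GBR called in siHic5/siNS alone to 56.4 for the 466 called in 5 lists and 97.5 for the core GBR. These values and the interval are tied to the rule, which rests on the calls, and are descriptive.

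**Figure D1:**
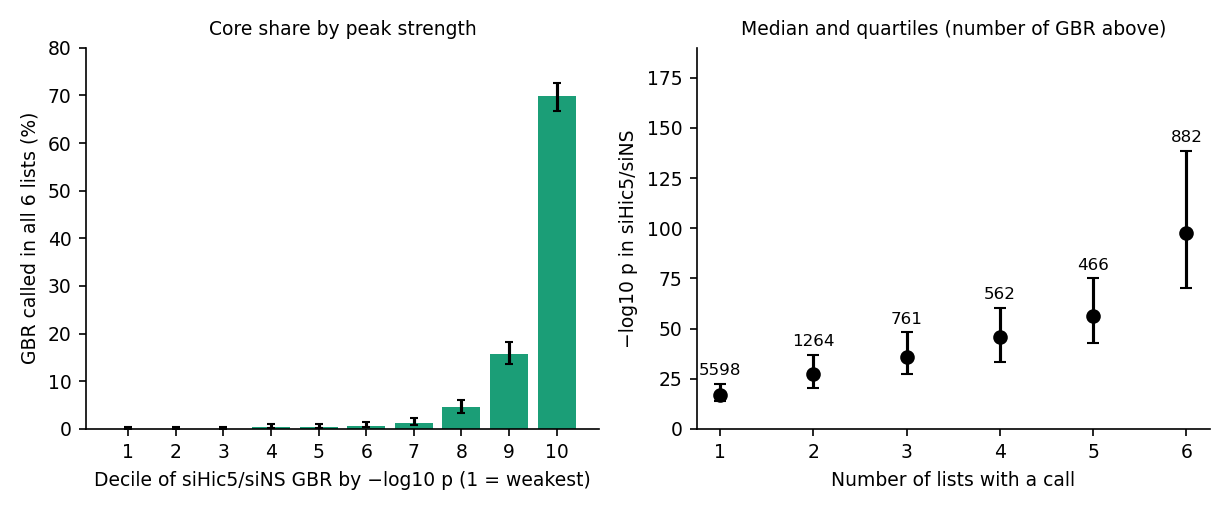
Core share and peak strength in the siHic5/siNS list. Left, the percentage of GBR called in all 6 lists (bars, 95% Wilson intervals) by decile of the list, from 0 in the weakest 3 deciles to 69.8% in the strongest. Right, median and quartiles of −log10 p by the number of lists with a call, with the number of GBR above each point, rising from 17.1 to 97.5.

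Membership still reached down the list. The 3 weakest core GBR had −log10 p-values of 19.0, 17.4 and 17.3 in siHic5/siNS and lay in an intron of TENM2, 547 kb upstream of SLITRK5 and 519 kb downstream of KIF4B. None of these 3 held a GRE, and the one upstream of SLITRK5 held an AP-1 match. On the other side of the rule, the strongest GBR that missed a single list lay 2.06 kb upstream of ITGA5 (−log10 p 224, rank 62), in an intron of RIPOR2 (172) and in an intron of RERG (142). All 3 lacked a call in siBRM/siNS, and all 3 held both a GRE and an AP-1 match. Of the 466 GBR called in 5 lists, 275 lacked siBRM/siNS, 152 lacked siCHD9/siNS, 27 lacked siCHD9/siHic5, 7 lacked siNS/siNS and 5 lacked siBRM/siHic5, so the smaller the list, the more often it was the one without a call.

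The share of the siHic5/siNS list with a call was 26% in siNS/siNS, 14.5% in siCHD9/siNS, 24.6% in siCHD9/siHic5, 13.1% in siBRM/siNS and 34.6% in siBRM/siHic5. Seen from the other lists, core GBR filled 70.4% of siBRM/siNS (67.9 to 72.9%) and 63.6% of siCHD9/siNS (61.1 to 66.1%), the 2 smallest lists. They filled 36.8% of siCHD9/siHic5, 35.1% of siNS/siNS and 26.6% of siBRM/siHic5. Within every list core GBR were stronger than the remaining peaks, with median −log10 p-values of 41.7 against 17.3 in siNS/siNS, 24.7 against 14.5 in siCHD9/siNS, 39.4 against 16.1 in siCHD9/siHic5, 23.5 against 13.6 in siBRM/siNS and 84.4 against 26.9 in siBRM/siHic5. The share of core GBR in the stronger part of a list, above its median rank, ranged from 66% in siBRM/siNS to 99.3% in siHic5/siNS. Core peaks were also wider in siHic5/siNS than other shared GBR, with median widths of 764 and 584 bp. Heights were not compared between lists, since read totals were not in the files.

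**Figure D2:**
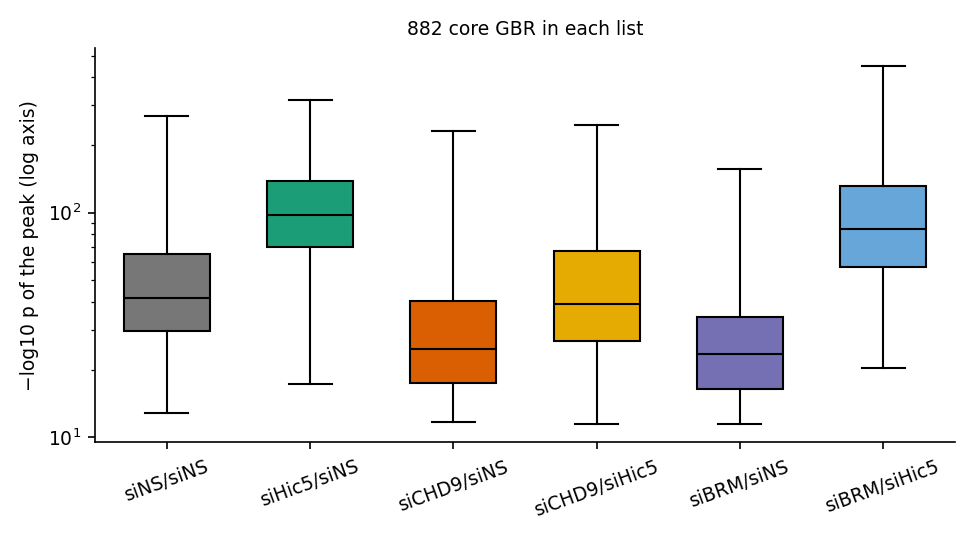
Strength of the 882 core GBR in each list. The log axis gives −log10 p of the strongest overlapping peak, boxes show the median and quartiles, and whiskers reach the lowest and highest value, so the medians run from 23.5 in siBRM/siNS to 97.5 in siHic5/siNS with no correction for depth.

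The order of core GBR by strength was partly kept between lists. Over the 882 core GBR, Spearman's rho of the −log10 p-values ranged from 0.599 (siCHD9/siHic5 with siBRM/siNS) to 0.850 (siNS/siNS with siBRM/siNS) over the 15 pairs of lists. The other pairs above 0.8 were siCHD9/siNS with siCHD9/siHic5 (0.841) and siHic5/siNS with siBRM/siHic5 (0.829). By signal value the range was 0.513 to 0.720. These correlations run across GBR that share libraries and sequence context, and are descriptive. Of the core GBR, 56 were among the 100 strongest core GBR in all 6 lists, and 160 were so in at least 1 list.

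**Figure D3:**
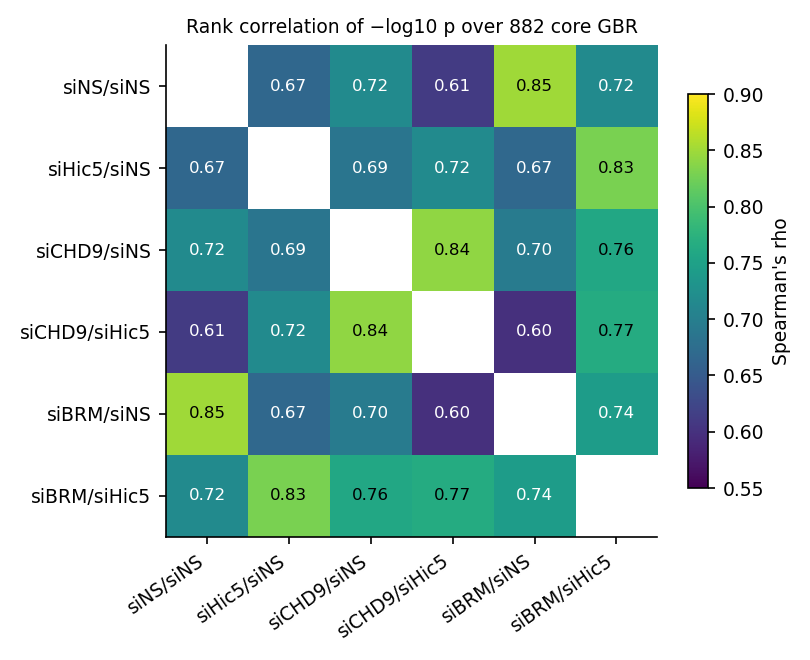
Spearman's rho of −log10 p over 882 core GBR for each pair of lists. Rows and columns are the 6 lists and the color gives rho, which was highest for siNS/siNS with siBRM/siNS (0.85) and lowest for siCHD9/siHic5 with siBRM/siNS (0.60).

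The strongest core GBR lay near genes with well-known glucocorticoid responses as well as near less studied ones. The strongest was in an intron of IP6K3, an inositol hexakisphosphate kinase gene, at chr6:33745297-33747041, with its summit 0.599 kb downstream of the transcription start site (TSS). Its −log10 p-values were 212 in siNS/siNS, 317 in siHic5/siNS, 105 in siCHD9/siNS, 172 in siCHD9/siHic5, 92.8 in siBRM/siNS and 354 in siBRM/siHic5. Among core GBR it ranked 7, 1, 32, 24, 24 and 14 in these lists.

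The next was at chr14:35403352-35405148 in NFKBIA, which encodes the inhibitor of NF-κB, with its summit in a UTR 0.698 kb downstream of the TSS. Its −log10 p-values in the same order of lists were 229, 316, 162, 217, 133 and 403, and its ranks among core GBR stayed between 2 and 7. Rank 3 in siHic5/siNS was held by chr6:35725453-35728701 in an intron of FKBP5, the gene of a GR co-chaperone, which gave 218, 313, 230, 245, 145 and 405 and was the strongest core GBR in both siCHD9 lists.

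The peak upstream of MT2A, a metal-binding metallothionein gene, at chr16:56606559-56608992 gave 205, 306, 144, 195, 112 and 392, with its summit 0.265 kb from the TSS. The one in HIF3A, a hypoxia-inducible factor gene, at chr19:46300660-46301551 was the strongest core GBR in siNS/siNS (269) and siBRM/siHic5 (451), and ranked 33 in siCHD9/siNS (105). The remaining members of the strongest 10 were nearest to NPTX2, UBE2QL1, CDKN2AIPNL, MT1E and CPNE7. Of these, the GBR at MT1E, 0.228 kb upstream of its TSS, ranked 9 in siHic5/siNS and between 36 and 151 elsewhere, and reads from metallothionein genes can be hard to place among near-identical copies. All 10 held a GRE, and 2 of them, at FKBP5 and NPTX2, held an AP-1 match in the 200-bp window.

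Some core GBR changed place between lists. The largest loss of rank toward both siCHD9 lists was at chr5:126508711-126509681, 85.7 kb from GRAMD2B, which ranked 70 of the core GBR in siHic5/siNS (−log10 p 216) and 866 in siCHD9/siNS (12), 683 in siCHD9/siHic5 (25.2), 522 in siNS/siNS (37.8), 738 in siBRM/siNS (14.5) and 383 in siBRM/siHic5 (91.9). The largest loss toward both siNS/siNS and siBRM/siNS was 46.1 kb from C2CD4A, with rank 139 in siHic5/siNS (166), 862 in siNS/siNS (16.1) and 812 in siBRM/siNS (12.7). Toward siBRM/siHic5 it was a GBR 49.9 kb upstream of LGALSL, with rank 182 (149) and then 741 (47.3).

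The GBR with the largest gains are named by the nearest protein-coding TSS, with its distance. That of DYSF (234 kb) went from rank 800 in siHic5/siNS to 92 in siNS/siNS, and that of CCN1 (26.6 kb) from 819 to 229 in siCHD9/siNS. That of HOOK1 (64.1 kb, in an intron of FGGY) went from 858 to 327 in siCHD9/siHic5. That of RPTOR (15.5 kb) went from 827 to 145 in siBRM/siNS, and that of TMPRSS5 (31.2 kb) from 811 to 245 in siBRM/siHic5. These GBR were selected for the size of their shift, and with 1 pooled list per condition the shifts have no replicate check.

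The summit of GR occupancy lay at nearly the same place in all conditions. The rule did not use the summit, which lay a median of 12 to 14 bp from the siHic5/siNS summit in each of the other 5 lists, and 64.9 to 69.6% of core GBR were displaced by at most 20 bp. The distance between the outermost of the 6 summits had a median of 37 bp (quartiles 24 to 54.8), and it was at most 50 bp at 625 core GBR (70.9%). It exceeded 200 bp at 14 core GBR, of which MT2A was one, with 1011 bp inside a 2-kb peak. At the 523 core GBR with a single GRE, the GRE lay a median of 10 to 12 bp from the summit in every list, and 67.3 to 75.7% of these GRE were within 20 bp of it.

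Sequence content was not used by the rule and could be tested. In the 200 bp around the siHic5/siNS summit, a GRE was present at 609 of 882 core GBR (69.0%, 65.9 to 72.0%), at 55.6% of other shared GBR and at 43.7% of all other siHic5/siNS GBR, while 2.49% of windows of the same length 5 kb from core summits held one. Over the whole list the share was 46.1%. At the 466 GBR called in exactly 5 lists it was 59.0% (54.5 to 63.4%), an interval below the core one, and this difference was not tested. The search covered both strands and tolerated 1 mismatch over the 10 positions that the GRE pattern defines. The odds ratio was 1.78 (95% interval 1.5 to 2.12) against other shared GBR and 2.87 (2.47 to 3.33) against all others, with p-values of 3.3e-10 and 2.6e-46 by the 2-sided Fisher exact test after Benjamini-Hochberg (BH) adjustment over 7 motifs.

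Much of this difference moved with peak strength. When GBR were compared within strength deciles of the siHic5/siNS list (matched comparison, Cochran-Mantel-Haenszel chi-square test, BH over 7 motifs), the GRE odds ratio was 1.25 (1.01 to 1.56, p = 0.083) against other shared GBR, which no longer passed the threshold of 0.05, and 1.46 (1.19 to 1.79, p = 0.00073) against all others. Of the 882 core GBR, 665 lay in the strongest decile, which spanned −log10 p-values of 70.0 to 317. Strength can still differ within that decile, so the matched ratios here and below may not be free of it. The weakest 3 deciles held no core GBR and did not count. Logistic regression on GC content and rank in the list gave 1.41 (1.16 to 1.72, BH p = 0.0037, n = 2474 GBR) against other shared GBR, which passed. A stricter form, in which the G, ACA, TGT and C of both arms (8 bases) were all required, was found at 33.3, 24.7 and 16.0% of core, other shared and all other GBR, and at 0.567% of core flanks. The full GRE with no mismatch was found at 23.1, 15.0 and 9.27%, with strength-matched odds ratios, by the same chi-square test, of 1.51 (1.15 to 1.99, p = 0.0038, not adjusted) and 1.74 (1.33 to 2.27, p = 4.5e-05, not adjusted).

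The quality and the number of GRE differed as well. Of the GRE nearest to the summit, 31.5% had no mismatch at core GBR, 25.8% at other shared GBR and 20.1% at all others. Mismatches at the second base of an arm were present in 14, 20.1 and 23.2% of these GRE, and the innermost base, the last A of ACA, was mismatched in 29.4, 25.2 and 24.6%. Position 4 was A in 95.3% and position 5 was C in 99.0% of core arms, against 93.4 and 97.3% for all other GBR. The search pattern asks for both bases, so high shares follow from it. Position 3, which the search left free, was A in 42.6%, G in 26.8%, C in 15.6% and T in 15.0% of core arms. GRE centres lay a median of 11, 13 and 16 bp from the summit in the 3 sets. At least 2 GRE matches were present at 9.75% of core, 7.10% of other shared and 4.66% of all other GBR. The odds ratios were 1.41 (1.06 to 1.90, p = 0.025 by Fisher exact test) and 2.21 (1.73 to 2.82, p = 2.8e-09), and 1.26 (0.864 to 1.83, p = 0.24) and 1.45 (1.01 to 2.09, p = 0.043) by the chi-square test matched on strength, none of them adjusted. After FIBCD1, the GBR with the most GRE were in MTNR1A and ANO2 introns (5 matches each), upstream of ETV3 (4) and in an intron of CRTC1 (4).

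AP-1, the FOS and JUN dimer that binds TGACTCA or TGAGTCA, was the second motif that stood out against other shared GBR. A match was present at 22.7% of core GBR (20.0 to 25.5%), 16.0% of other shared GBR and 19.1% of all others. The share was 3.17% in core flanks and 19.4% over the whole list. At the 466 GBR called in exactly 5 lists it was 20.0% (16.6 to 23.8%), an interval that overlapped the core one. In the 1-kb window it was 41.6% there and 41.5% at core GBR. A difference between that set and core GBR was not tested. The odds ratio against other shared GBR was 1.54 (1.25 to 1.89, BH p = 2.1e-04, Fisher exact test), and 1.31 (1.00 to 1.71, BH p = 0.083, chi-square test) when matched on −log10 p-value. It was 1.48 (1.16 to 1.89, BH p = 0.0053, chi-square test) when matched on signal value and 1.41 (1.11 to 1.80, BH p = 0.012, n = 2474 GBR) in the regression, both past the threshold. Against all others it was 1.24 (1.05 to 1.47, BH p = 0.019, Fisher exact test), and matching on −log10 p-value gave 1.05 (0.826 to 1.34, BH p = 0.71, chi-square test).

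The AP-1 share was higher at core GBR with and without a GRE. Among GBR with a GRE it was 20.4% (17.4 to 23.7%) for core, 13% (10.9 to 15.4%) for other shared and 12.3% (11.3 to 13.4%) for all others. Among GBR without a GRE it was 27.8% (22.9 to 33.4%), 19.8% (17.0 to 22.9%) and 24.3% (23.1 to 25.5%). There the core interval overlapped both others. The odds ratio common to both strata, by the Cochran-Mantel-Haenszel chi-square test, was 1.65 (1.33 to 2.03, p = 3.0e-06) against other shared GBR and 1.53 (1.29 to 1.81, p = 8.9e-07) against all others. Neither ratio was matched on strength. The ratio against all others pools unlike strata, since core and all others lay further apart with a GRE than without. A GRE together with an AP-1 match was found at 124 core GBR (14.1%), against 7.22 and 5.39% of the other sets. In these 124 the centres lay a median of 43 bp apart (quartiles 27 to 72.2), and 18 pairs lay within 20 bp. The window at KLF9 above is one of them.

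**Figure D4:**
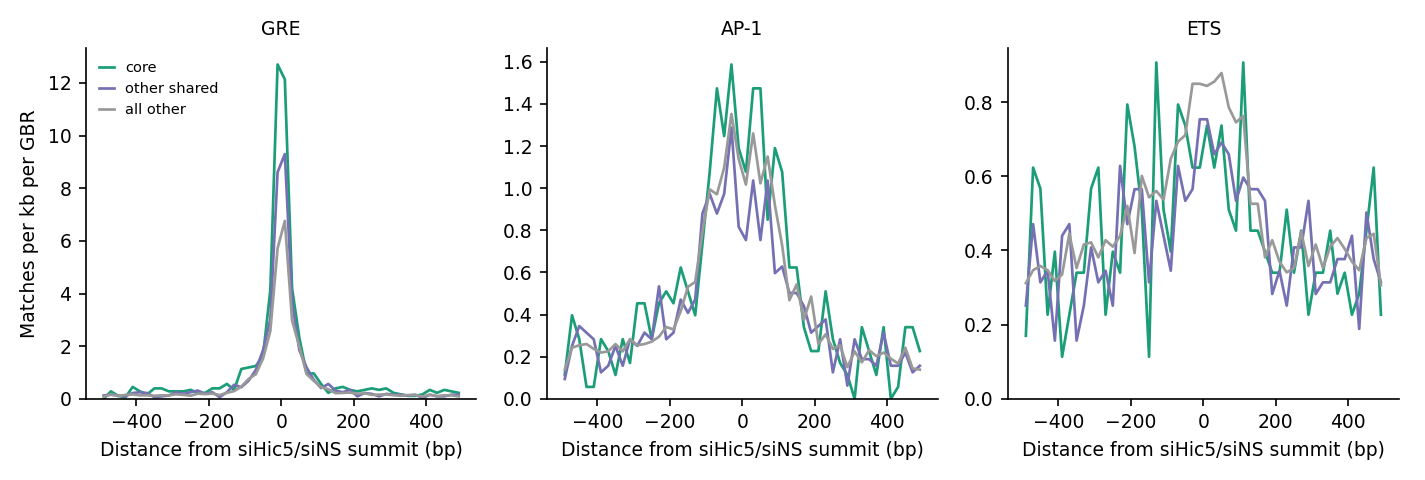
Position of GRE, AP-1 and ETS matches around the siHic5/siNS summit. Each line gives matches per kb per GBR in bins of 20 bp for core, other shared and all other GBR, and each panel has its own vertical scale. GRE matches peak at the summit and are most frequent in core GBR, AP-1 matches spread over about 100 bp on either side, and ETS matches near the summit are most frequent in all other GBR.

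ETS, RUNX and TEAD motifs behaved differently from the GRE when strength was matched. An ETS match (CAGGAA or CCGGAA, then A or G, then C or T) was present at 11.1% of core, 10.8% of other shared and 14.1% of all other GBR. Against all others the odds ratio was 0.764 (0.614 to 0.950, BH p = 0.022, Fisher exact test) and 0.574 (0.427 to 0.771, BH p = 0.00058) when matched on −log10 p-value. Against other shared GBR it was 1.03 (0.793 to 1.34, BH p = 0.84, Fisher exact test), and 0.749 (0.543 to 1.03) when matched, so a difference was not detected there.

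The TEAD motif GGAATGT, bound by partners of the Hippo pathway coactivator YAP, was present at 13.2% of core, 11.7% of other shared and 9.57% of all other GBR, against 3.12% of core flanks. The RUNX motif TGTGGTT, bound by a family that includes the osteoblast regulator RUNX2, was present at 8.62, 7.16 and 6.01%, against 3.97% of core flanks. Against all others the odds ratios were 1.43 (1.16 to 1.76, BH p = 0.0039) for TEAD and 1.47 (1.15 to 1.90, BH p = 0.0080) for RUNX by Fisher exact test. Against other shared GBR they were 1.14 (0.893 to 1.47, BH p = 0.43) and 1.22 (0.903 to 1.65, BH p = 0.36), by Fisher exact test, and passed the threshold only in the comparisons that took strength into account, at 1.68 (1.21 to 2.34, BH p = 0.013) for TEAD and 1.66 (1.12 to 2.48, BH p = 0.036) for RUNX.

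FOX (GTAAACA) and CRE (TGACGTCA) matches were present at 3.51 and 0.227% of core GBR, 4.71 and 0.503% of other shared GBR and 3.77 and 0.451% of all others. No difference was detected, with odds ratios against other shared GBR of 0.737 (0.481 to 1.13) and 0.450 (0.0954 to 2.12). Matches of 2 motifs can overlap, and at core GBR 3 of 216 AP-1, 8 of 105 ETS, 2 of 84 RUNX and 6 of 127 TEAD matches overlapped a GRE match. A match is a stretch of letters and does not show that the factor was bound.

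**Figure D5:**
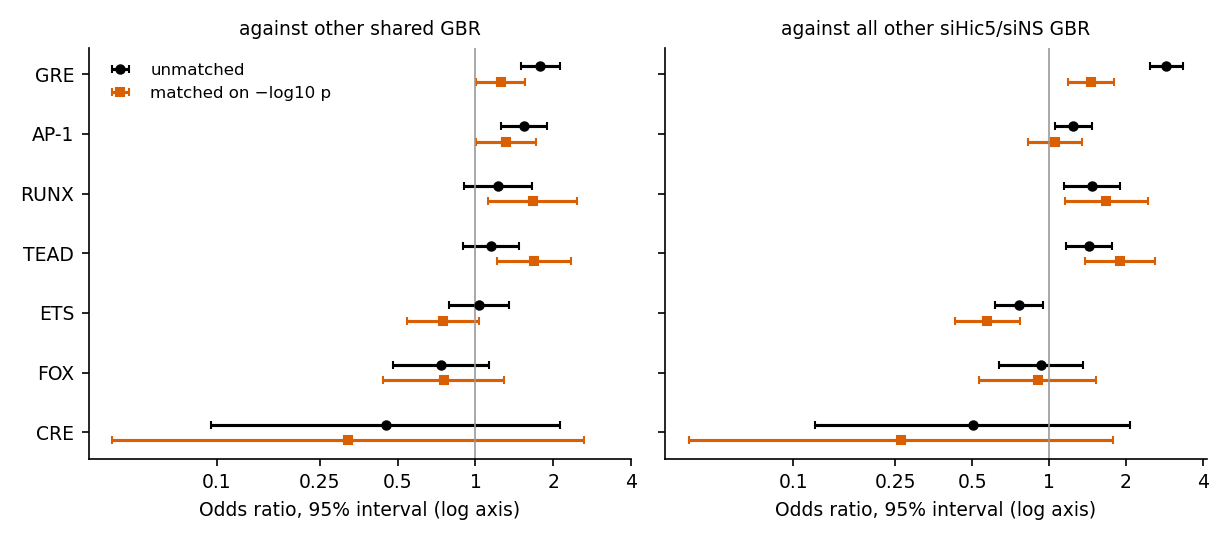
Odds ratios of motif presence in the 200-bp window at core GBR. Circles are unmatched and squares are matched on −log10 p in the siHic5/siNS list, bars are 95% intervals, the axis is logarithmic, and the line marks a ratio of 1. The GRE ratio against all others falls from 2.87 to 1.46 with matching, while the TEAD ratio rises from 1.43 to 1.89.

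Not every core GBR held a GRE, AP-1 or ETS match in the 200-bp window. No GRE was found at 273 core GBR (31.0%), of which 76 held an AP-1 match and 23 held an ETS match without AP-1. The remaining 174 core GBR (19.7%) held none of the 3, against 31.7% of other shared GBR and 36.1% of all others. The GBR 1.34 kb upstream of DUSP1, a MAP kinase phosphatase gene, at chr5:172772111-172772953 was among them, although its −log10 p-values were 99.3 in siNS/siNS, 147 in siHic5/siNS, 51.3 in siCHD9/siNS, 67.2 in siCHD9/siHic5, 33.8 in siBRM/siNS and 88.3 in siBRM/siHic5. In each list core GBR without a GRE had a lower median −log10 p-value than those with 1 GRE, for instance 88.6 against 101 in siHic5/siNS and 20.8 against 23.6 in siBRM/siNS, and the quartiles overlapped. The GC content of the windows was 51.8% ± 9.07 (SD, n = 882 GBR) for core, 50.2% ± 9.31 (n = 1592) for other shared and 49.5% ± 9.5 (n = 8651) for all other GBR.

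The change in rank of core GBR between some pairs of lists differed with their motif content. From siNS/siNS to siCHD9/siNS, the rank number of the 200 core GBR with an AP-1 match dropped by a median of 75 places, toward the strong end, while the 682 without one gained 13 (quartiles -189 to 2 and -77.5 to 139). From siHic5/siNS to siCHD9/siHic5 it dropped by 43 with AP-1 and gained 5.5 without. From siNS/siNS to siHic5/siNS it dropped by 28.5 with AP-1 and gained 6 without. From siNS/siNS to siBRM/siNS the medians were -1.5 and 0, and from siHic5/siNS to siBRM/siHic5 they were -12.5 and 6. Several of these comparisons share a reference list. From siNS/siNS to siHic5/siNS the median change in rank number was 34.5, toward the weak end, for core GBR with a TEAD match and -4 for those without. An ETS match went with a median of -32.5 against 4.5 without one from siNS/siNS to siHic5/siNS, 35.5 against -5 from siHic5/siNS to siCHD9/siHic5 and 34 against -0.5 from siHic5/siNS to siBRM/siHic5. For a GRE match the medians were 2 and -16 from siNS/siNS to siCHD9/siNS, 2 and -11 from siNS/siNS to siBRM/siNS, and 6 and -21 from siHic5/siNS to siBRM/siHic5. They were 0 and -21 from siHic5/siNS to siCHD9/siHic5, and -2 and 8, the other way, from siNS/siNS to siHic5/siNS. For RUNX the widest gaps were 25 and -2 from siNS/siNS to siHic5/siNS, and -22 and 4 from siHic5/siNS to siBRM/siHic5. Quartile ranges with and without a match overlapped in every comparison, and not all comparisons are listed. These shifts have no replicate check and were not tested.

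Core GBR were mostly distal. The median distance to the nearest protein-coding TSS was 52.6 kb (quartiles 15.3 to 122), and 54.0% of summits were intergenic, 40.5% intronic, 3.17% in a UTR, 1.47% in a coding exon and 0.907% in another exon. A protein-coding TSS lay within 1 kb of 41 core GBR (4.65%, 3.44 to 6.24%), 4.02% of other shared GBR and 4.55% of all others, with odds ratios of 1.16 (0.779 to 1.74, p = 0.47) and 1.02 (0.735 to 1.42, p = 0.87) by Fisher exact test, so a difference was not detected. With the TSS of all gene types, which adds noncoding RNA genes, 106 core GBR (12%) were within 1 kb against 7.66% of other shared GBR (odds ratio 1.65, 1.25 to 2.17, p = 4.7e-04, Fisher exact test) and 9.17% of all others (1.35, 1.09 to 1.68, p = 0.0077). Matched on −log10 p-value, by the chi-square test, these were 1.52 (1.07 to 2.17, p = 0.021) and 1.35 (0.977 to 1.87, p = 0.067). All 4 are unadjusted.

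Core GBR often had company. Another siHic5/siNS GBR lay within 10 kb of 375 core GBR (42.5%, 39.3 to 45.8%) and of 36.4% of other shared GBR, an odds ratio of 1.29 (1.09 to 1.53, p = 0.0029, Fisher exact test). Matched on −log10 p-value, by the chi-square test, the ratio was 0.891 (0.717 to 1.11, p = 0.30), on the other side of 1. Another core GBR lay within 50 kb of 200 core GBR (22.7%), and chaining at that distance gave 682 isolated core GBR, 69 pairs and 19 groups of 3 or more.

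The largest group lay in an intron of ZBTB16, the gene of a zinc finger repressor induced by glucocorticoids. All 6 siHic5/siNS GBR between summits 114154669 and 114198203 on chromosome 11 were core. In siHic5/siNS their −log10 p-values from the first to the last were 143, 224, 240, 196, 287 and 107. In siCHD9/siNS they were 40.9, 112, 99.2, 26.3, 107 and 20.6, and in siBRM/siNS 28.1, 75.5, 88.9, 32.7, 79.96 and 17.8. The fifth, 120 kb into the gene, was the highest of the 6 in siHic5/siNS, siNS/siNS (198) and siBRM/siHic5 (349). The second, 100 kb into the gene, was the highest in siCHD9/siNS, and the third, 103 kb into the gene, was the highest in siCHD9/siHic5 (174) and siBRM/siNS. The 4 in the middle held a GRE and the outer 2 held none.

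At FKBP5, 6 of the 9 siHic5/siNS GBR within 100 kb of the canonical TSS were core, the most of any gene. Of these, 2 lay 86.8 and 98.1 kb downstream, within the gene, and 4 lay 26.7 to 43.1 kb upstream, of which 3 were in introns of longer FKBP5 transcripts. Their −log10 p-values in siHic5/siNS were 215, 133, 90.1, 199, 313 and 283 in that order, the 4 upstream ones from near to far. The nearest upstream one had 18.4 in siCHD9/siNS and 15.2 in siCHD9/siHic5, while the one shown above, 39.2 kb upstream, had 230 and 245 there. The summit of the latter, at 35728108 on chromosome 6, lay close to the annotated 5′ end of FKBP5 at 35728583. Distances to other TSS of FKBP5 were not measured. DDIT4, a stress-induced inhibitor of mTOR signaling, had 5 core GBR, of which 4 lay 18.7 to 31.1 kb upstream and each held 1 GRE. Their values in siHic5/siNS were 245, 258, 103 and 206 from the nearest to the farthest, and in siCHD9/siNS 49.7, 62.4, 37.1 and 55.9.

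Over all 20046 protein-coding genes, 1484 (7.4%) had a core GBR within 100 kb of the TSS and 43.6% had any siHic5/siNS GBR there. Gene lists were written with earlier results of these data known and were not tested. Of 15 classical dex-induced genes, 9 had a core GBR within 100 kb and 12 had any GBR. Those with one were FKBP5, PER1, DUSP1, KLF9, ZBTB16, CRISPLD2, MT2A, TFCP2L1 and SCNN1A. The GBR 2.06 kb upstream of the canonical TSS of PER1, a repressor of the circadian clock, gave −log10 p-values of 156 in siNS/siNS, 250 in siHic5/siNS, 78.7 in siCHD9/siNS, 164 in siCHD9/siHic5, 86.5 in siBRM/siNS and 278 in siBRM/siHic5, and ranked between 28 and 73 among core GBR. That of SCNN1A, which encodes a subunit of the epithelial sodium channel, ranked between 7 and 54 and its 6 summits lay within 7 bp. The KLF9 GBR, 5.45 kb upstream of this transcription factor gene, gave 103, 176, 80.7, 113, 50.1 and 183 in the same order of lists. At the weak end, the CRISPLD2 intron ranked between 736 and 805.

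TSC22D3, which encodes GILZ, had 5 siHic5/siNS GBR within 100 kb of its canonical TSS. Its nearest core GBR was 102 kb from that TSS, just outside the limit. One of the 5, 98.5 kb downstream of the canonical TSS and past the 3′ end of the gene, was called in every list but siCHD9/siNS. Distances to other TSS of this gene were not measured. For ERRFI1 the best GBR was called in 4 lists, for GLUL in 1, and no siHic5/siNS GBR lay within 100 kb of SGK1, BCL6 or CDKN1C.

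Of 12 anti-inflammatory regulators, 7 had a core GBR within 100 kb and 11 had any, next to 7.4 and 43.6% over all protein-coding genes. Besides NFKBIA and DUSP1, the 7 were ZFP36, an mRNA decay factor, TNFAIP3, the gene of the ubiquitin editor A20, SERPINA3, IL1R2, the interleukin-1 decoy receptor, and SOCS1. The GBR 2.88 kb downstream of the ZFP36 TSS gave −log10 p-values of 159 in siNS/siNS, 283 in siHic5/siNS, 107 in siCHD9/siNS, 152 in siCHD9/siHic5, 102 in siBRM/siNS and 346 in siBRM/siHic5, and ranked between 16 and 38. The GBR 55.6 kb upstream of TNFAIP3 had no GRE but an AP-1 and an ETS match, and gave 13, 97.7, 19.7, 51.3, 15.2 and 113. Its rank among core GBR ranged from 279 to 880, with the last place in siNS/siNS. IL1R2 had 3 core GBR within 100 kb.

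Of 12 fasting metabolism genes, 4 had a core GBR within 100 kb and 10 had any, next to 7.4 and 43.6% over all protein-coding genes. The 4 were ANGPTL4, an inhibitor of lipoprotein lipase (8.27 kb upstream, ranks 99 to 191), PDK4, a kinase that restrains pyruvate oxidation (0.611 kb upstream, ranks 540 to 745), IGFBP1 (1.08 kb downstream, ranks 373 to 723) and CPT1A, the gateway of fatty acids into mitochondria (66.5 kb downstream, in a coding exon, ranks 607 to 861). KLF15 had a GBR 1.38 kb from its TSS that was called in every list but siCHD9/siNS. No siHic5/siNS GBR lay within 100 kb of TAT or FOXO1, which are glucocorticoid targets in liver.

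Of 14 circadian clock genes, 2 had a core GBR within 100 kb and 9 had any, next to 7.4 and 43.6% over all protein-coding genes. The 2 were PER1 and BHLHE40, a repressor of CLOCK and BMAL1. The BHLHE40 GBR, 0.451 kb upstream, had no GRE but an AP-1 match in the 200-bp window, and gave −log10 p-values of 29.9 in siNS/siNS, 91.7 in siHic5/siNS, 26.7 in siCHD9/siNS, 46.7 in siCHD9/siHic5, 16.2 in siBRM/siNS and 67.6 in siBRM/siHic5. PER2, PER3 and CRY1 had no siHic5/siNS GBR within 100 kb.

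Among transcription factor families, 4 of 14 Kruppel-like factor genes (KLF6, KLF7, KLF9 and KLF16), 2 of 6 C/EBP genes (CEBPB and CEBPD) and 2 of 10 AP-1 subunit genes (JUNB and BATF) had a core GBR within 100 kb. Any siHic5/siNS GBR lay within that distance of 8, 3 and 8 genes of these families, in the same order. Over all protein-coding genes, 7.4% had a core GBR there and 43.6% had any. The GBR in a BATF intron ranked between 36 and 106 and the one 7.40 kb upstream of JUNB between 819 and 872. FOS, FOSL2 and JUND each had a GBR within 1 kb of the TSS, called in 1, 1 and 2 lists.

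Of 15 osteoblast differentiation genes, 1 had a core GBR, MSX2, or 6.67%, close to the 7.4% over all protein-coding genes, and 11 had any siHic5/siNS GBR within 100 kb, next to 43.6% over all protein-coding genes. The MSX2 GBR was strong. It lay 13.1 kb downstream of the TSS, with the repeated sequence shown above, and ranked between 35 and 95. RUNX2, SP7, SPP1 and COL1A2 had GBR called in siHic5/siNS alone, COL1A1 had one called in 3 lists, and ALPL, the alkaline phosphatase of mineralizing cells, had one called in every list but siCHD9/siNS.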

How the data were processed

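Peak lists of GR ChIP-seq in U2OS-GRα cells were analysed for 6 siRNA combinations, made from 12 ChIP libraries (2 replicates per combination) and 6 inputs. The authors mapped the reads with BWA to GRCh38, called peaks with MACS2 on pooled replicates and filtered them with IDR. Versions and the IDR threshold are not given in the sources used here. Per the file headers and the peak format, the deposited lists hold a signal value, the p-value and q-value of MACS2 on the −log10 scale, and the summit offset. The signal was used within lists only, because its unit is described differently in the format and in the study's supplement. DiffBind, which the processing notes also name, was not used here.

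Lists were intersected with an overlap of at least 1 bp, and where several peaks of a list overlapped a core GBR the strongest was taken. All peak ends lay within the reference sequences, and 1 core GBR lay on an alternate contig. Motifs were searched on both strands in 200 bp at the siHic5/siNS summit, TSS were those of the canonical transcripts of GENCODE release 44, and sequences were read from hg38. Two-sided Fisher exact tests, Cochran-Mantel-Haenszel tests, logistic regression and Wilson intervals used scipy 1.17.1 and statsmodels 0.14.6 in Python 3.11.15. Strength matching used 10 groups, of which only those with members of both compared sets counted. The scripts were tested on simulated data. GBR are not replicates, so intervals and p-values cover counting error between sets of GBR. Named GBR were the strongest 10, the weakest 3, those with the largest shifts in rank, those nearest to listed genes within 100 kb and the 5 with most GRE, and the 3 strongest GBR called in 5 lists were added after their values were seen. A list of housekeeping genes is not reported here. The members, gene lists and tests were chosen with earlier results of these data known. Alternatives were other overlap rules, a common q-value cutoff, other windows and distances, matching on strength and GC content, and, chosen after seeing the data, removal of matches that overlapped a GRE and stratification by GRE content.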

Additional observations from a re-analysis of the deposited data

How the results depend on the processing

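Pooling sets the main limit. No paired analysis was possible because each list pools its replicates, and leaving out a replicate was not possible for the same reason. Of 154 values recomputed under alternatives, 104 kept their direction and their side of the threshold, or moved by less than 1.5 times for counts. The number of core GBR was 571 with a reciprocal overlap of at least 50%, 479 with a common cutoff of 14.2 on −log10 q and 506 with the 1000 strongest peaks of each list, and it stayed within 1.5 times of 882 when summits had to lie within 200 bp, when counted on siNS/siNS and when any 1 other list was left out of the rule. The genes within reach of a core GBR numbered 800 at 50 kb, 194 at 10 kb and 884 with the common cutoff.

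Against other shared GBR, matching on −log10 p-value or on signal value (chi-square tests) gave odds ratios of 1.25 and 1.22 for the GRE (BH p = 0.083 and 0.10), 0.749 and 0.804 for ETS, 1.66 and 1.82 for RUNX (0.036 and 0.0053) and 1.68 and 1.62 for TEAD (0.013 and 0.0053), and matching on −log10 p-value gave 1.31 for AP-1 (0.083), which passed at 1.48 (0.0053) when matched on signal value. Logistic regression with GC content and rank (n = 2474 GBR) gave 1.41 for the GRE (0.0037), 1.41 for AP-1 (0.012), 0.724 for ETS, 1.64 for RUNX (0.012) and 1.63 for TEAD (0.0037). The common cutoff gave 0.976 for ETS and 0.895 for TEAD, below 1, and the 1-kb window gave 1.25 for CRE. Within 1 kb of a TSS, all gene types gave 1.65 and a reciprocal overlap 0.922. A neighbor within 10 kb gave 0.891 when matched.

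Against all others, AP-1 gave 1.05 and 1.21 when matched on −log10 p-value and signal, 1.20 in the regression (n = 9533 GBR), 1.21 with the reciprocal overlap and 1.21 with the common cutoff (BH p from 0.086 to 0.71). The 1-kb window gave 0.928 for ETS and 1.18 for RUNX, and the common cutoff 0.710 for ETS, 1.25 for RUNX and 1.16 for TEAD, none past the threshold, with fewer GBR in the test. The reciprocal overlap gave 1.08 for FOX. For a TSS within reach, 5 kb gave 0.965, all gene types 1.35 and the reciprocal overlap 0.748. Comparisons matched on peak strength are given, and no cause was tested. Leaving out matches that overlap a GRE match changed no call. The GRE ratio against all others passed the threshold under every alternative.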
